A study of Mus musculus with 2 samples.

Results

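The small RNA reads described here derive from transfer RNAs (tRNAs) that carry amino acids other than Gly, Glu, Asp, Val, Lys and His. They were chosen as the sequences that the deposited read table assigns to the repeat class under a tRNA name with another amino acid. The rule took 9808 of the 2344366 distinct sequences of the table, under 46 tRNA names and 15 amino acids, selenocysteine included. The RNA came from mouse fetal liver of the B6/129 strain at stage E18.5. It was extracted with Trizol, a 19 to 30 nt fraction was cut from a polyacrylamide gel, and adapters were ligated for Solexa sequencing. There was 1 library from wild type liver and 1 from Ago2ADH liver, in which Argonaute 2 is catalytically inactive, and the labels do not say how many livers entered each library or whether the Ago2ADH animals were homozygous. Both libraries therefore stand for their genotype alone, no test between genotypes is possible, and every interval below covers counting error only. PCR copies were not marked by molecular identifiers, so reads are not independent molecules. Where a pair of values is given without labels, the first is wild type and the second Ago2ADH, and a log2 ratio is Ago2ADH over wild type.

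Transfer RNAs fold into a cloverleaf with an acceptor stem, a D arm, an anticodon arm and a T arm, and they receive their terminal CCA after transcription. The initiator methionine tRNA reads the start codon, and the other tRNAs of these names serve elongation or, for selenocysteine, the recoded UGA codon. Stable tRNA fragments arise by cleavage in the D, anticodon or T loop, and fragments that carry the 3′ CCA have been found bound to Argonaute proteins. Argonaute 2 is the mammalian Argonaute with strong endonuclease activity on RNAs paired to its guide.

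The reads that carried most of the signal began at the tRNA's first base and ran into the D arm or to the anticodon loop. They are shown because the stops of such reads differed between the libraries in ways that the sums per name do not show. Capitals mark bases 8 to 18 where these hold T, G, A and G at bases 8, 10, 14 and 18, conserved bases at the junction of acceptor stem and D arm and in the D loop. Bases are counted from 1 at the read's 5′ end.
tRNA-Met-i, 27 nt: agcagagTGGCGCAGCGGaagcgtgct
tRNA-Met-i, 32 nt: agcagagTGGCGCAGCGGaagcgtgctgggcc
tRNA-Leu-CTG, 26 nt: gtcaggaTGGCCGAGCGGtctaaggc
tRNA-Ser-AGY, 24 nt: gacgaggTGGCCGAGTGGttaagg
tRNA-Trp-TGG, 18 nt: gacctcgTGGCGCAATGG
tRNA-Pro-CCY, 25 nt: ggctcgtTGGTCTAGGGGtatgatt
tRNA-Cys-TGY, 25 nt: gggggtaTAGCTCAGTGGtagagca
tRNA-Ala-GCG, 24 nt: ggggatgTAGCTCAGTGGtagagc
tRNA-Arg-AGA, 19 nt: ggctctgTGGCGCAATGGa
tRNA-Arg-CGG, 19 nt: gaccgcgTGGCCTAATGGa
tRNA-Arg-CGA, 19 nt: gaccacgTGGCCTAATGGa
The 3 Arg reads end at the same base of the D loop. The names are those of the repeat track, in which the letters after the amino acid are a codon and Y stands for C or T.

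Summed over all names, the members were about as abundant in both libraries. Wild type had 131482 such reads, or 17301 when scaled to 1000000 of all reads (RPM), and Ago2ADH had 129578, or 18390 RPM. The pooled log2 ratio was 0.09 (95% interval 0.08 to 0.10), and its sign depends on the scaling: relative to miRNA reads it was -0.02. Fragments of the 6 amino acids left out by the rule came to 457794 and 367063 reads (log2 ratio -0.21, interval -0.22 to -0.20). The libraries held 7599870 and 7046197 reads in all. The summed reads of 5 erythroid marker genes were 13592 and 8115 (log2 ratio -0.63), with none at 0; 4 of the 5 were lower, most of the reads were from Hba-a2 (9129 and 5225), and Tfrc was higher at 178 and 229 (0.47). The 8 hepatocyte genes gave 80257 and 78873 (0.08), 4 of them higher and 4 lower, from -0.88 for Serpina1a to 0.32 for Apoa2. The 3 bile duct and 3 muscle markers had too few reads to compare, with sums of 11 and 17, and of 15 and 11. Krt19 had 1 and 0 reads and Ckm 2 and 0, below 3 reads in both libraries. Sox9 (7 and 16) and Myh3 (1 and 5) went the other way. In each of these 2 lists 1 gene was higher and 2 were lower. In bulk liver, fewer cells of a type and less RNA per cell cannot be told apart, and the part of the lower erythroid sum in the tRNA results was not tested.

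Methionine tRNAs led the amino acids with 49384 and 48943 reads, 37.6% and 37.8% of the members. Leucine followed with 27477 and 27043 reads. The ratios of these tRNAs, log2 0.10 for Met and 0.09 for Leu, turn negative when scaled to miRNA reads. Alanine had 12238 and 9946, proline 8898 and 7478, serine 7622 and 7911, and arginine 7248 and 8713 reads. The largest positive differences among amino acids were for asparagine, with 962 and 1448 reads (log2 ratio 0.70, interval 0.58 to 0.82), threonine with 1234 and 1641 (0.52) and glutamine with 5186 and 6720 (0.48). Cysteine was the largest in the other direction, with 3826 reads against 1802 (-0.98, interval -1.06 to -0.90). Tryptophan had 4588 and 5186 reads, isoleucine 815 and 981, phenylalanine 911 and 864, selenocysteine 726 and 535, and tyrosine 367 and 367. Wild type reads per amino acid followed the number of RefSeq tRNA genes only in part (Spearman rho 0.52 over 14 amino acids that share the same library). Cysteine has the most genes, 56, and methionine 16.

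A size rule was applied to single names: at least 100 reads in both libraries together, a change of at least 2 times, and an interval that excludes no change. It is a rule of size, not a test, and "rose" and "fell" are used below only of what met it. Of 46 names, 42 had enough reads, 3 rose, 0 fell and 39 did neither. For comparison, 1.6% of all 4011 named features with enough reads met the rule, 0.997% higher and 0.598% lower. The median log2 ratio of the 42 names was 0.13, against 0.01 over all named features. Of their intervals, 21 lay above 0 and 8 below, against 593 above and 447 below for the 4011 named features. For the 12 names of the 6 other amino acids, 1 lay above and 11 below. These intervals narrow as reads increase, so such counts also depend on depth. The names with too few reads were tRNA-Thr-ACY_, tRNA-Tyr-TAT, tRNA-Arg-CGA_ and tRNA-Thr-ACG_.

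Of the 3 that rose, 2 were arginine tRNAs. tRNA-Arg-CGA rose from 149 to 337 reads (log2 ratio 1.29, interval 1.004 to 1.57) and tRNA-Thr-ACY from 147 to 330 (1.28, 0.99 to 1.57). tRNA-Arg-CGG, with 552 and 1068 reads (1.06, 0.91 to 1.21), drew 65.6% of its reads from 1 sequence, the 19-nt read shown above. That read had 348 and 714 copies (1.15) and 1 match in the genome. The most abundant sequence of tRNA-Arg-CGA made up 56.8% of that name's reads. RefSeq lists 3 tRNA genes with the CCG anticodon in GRCm38, at chr11:107012866-107012938, chr13:21215458-21215530 and chr17:23550263-23550335. Without the most abundant sequence of each name, tRNA-Arg-CGG no longer met the rule, while tRNA-Arg-CGA and tRNA-Thr-ACY did. tRNA-Cys-TGY lay just outside the rule at -0.98, and under scaling to miRNA reads it fell. Under the same scaling, and also with reads of 1 substitution added, tRNA-Arg-CGG no longer met the rule, while tRNA-Arg-CGA and tRNA-Thr-ACY did. Among reads with 1 genome match only tRNA-Arg-CGG and tRNA-Thr-ACG met the rule, both higher.

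**Figure D1:**
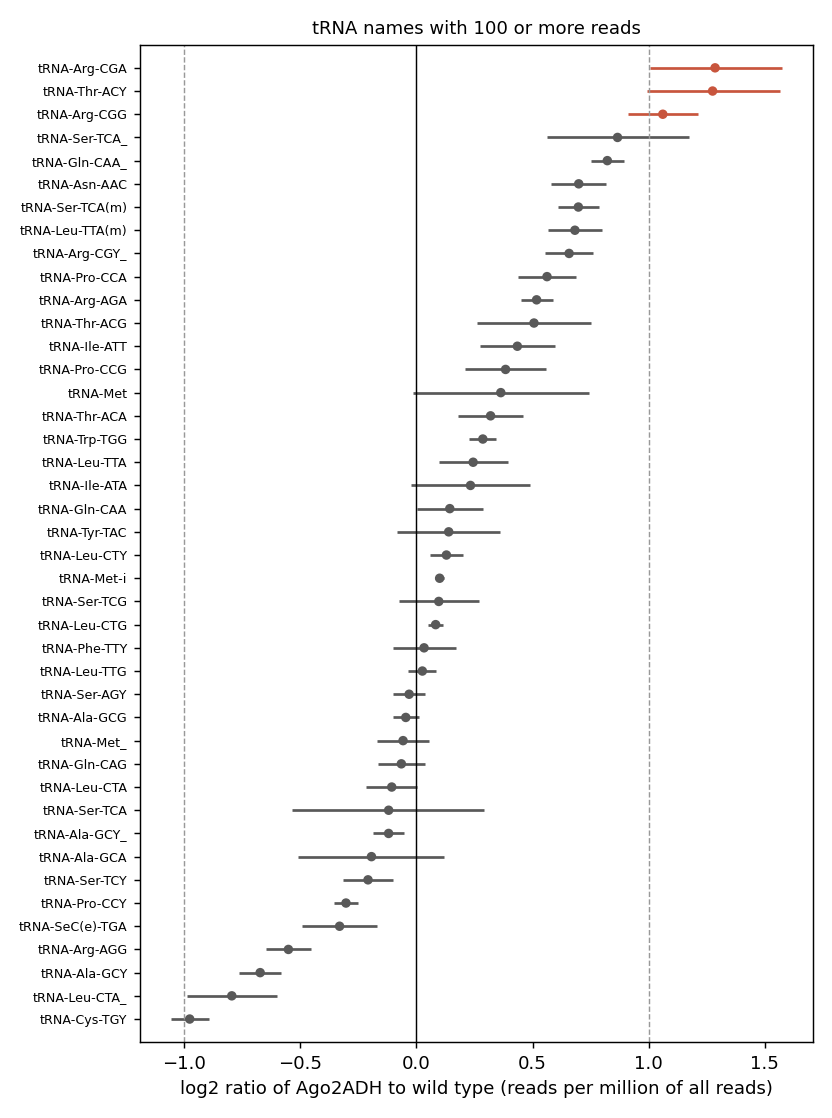
Log2 ratio of Ago2ADH over wild type, in RPM, for the 42 tRNA names with at least 100 reads, 1 point per name with its 95% counting interval and dashed lines at the fold limit of 2. The 3 names that rose, in red, lie right of the dashed line, and tRNA-Cys-TGY lies lowest at -0.98.

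Among the most abundant names, tRNA-Leu-CTG had 15789 and 15501 reads, tRNA-Pro-CCY 7486 and 5623 (log2 ratio -0.30), tRNA-Ala-GCG 5322 and 4779, and tRNA-Leu-TTG 4534 and 4278. tRNA-Trp-TGG and tRNA-Ala-GCY_ had 4588 and 5186 reads, and 4058 and 3462. None of these names met the size rule. The summed count of a name hid differences between its parts. Reads from the 5′ end of alanine tRNAs numbered 4320 and 2220 (log2 ratio -0.85), and all other alanine reads 7918 and 7726 (0.07). For tRNA-Ala-GCG the same split gave -1.22 for 1455 and 580 reads from the 5′ end, and 0.23 for the rest. Most of that rest, 3867 and 4199 reads, was 1 sequence of 18 nt that ends in CCA, with 2877 and 3204 copies (0.26). For arginine the split ran the other way, with 3942 and 5867 reads from the 5′ end (0.68) and 3306 and 2846 for the rest (-0.11). For tRNA-Leu-CTY it was -0.48 from the 5′ end and 0.72 elsewhere.

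Single sequences met the rule more often than names, in the members as in all the data. Of the 300 member sequences with at least 100 reads, 23 rose, 45 fell and 232 did neither. Among all 6956 such sequences 18.7% met the rule, 7.39% higher and 11.3% lower. The 45 included 16 of the 50 tRNA-Met-i sequences, 7 of 12 of tRNA-Cys-TGY and 4 of 9 of tRNA-Ala-GCG, names with 0 sequences that rose. The 23 included 4 of 7 tRNA-Asn-AAC, 4 of 12 tRNA-Gln-CAA_ and 4 of 17 tRNA-Leu-CTY sequences.

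The cysteine and alanine reads shown above both hold the D arm run TAGCTCAGTGG, which members that did not fall hold too. Among the latter are a 28-nt tRNA-Cys-TGY read with 162 and 161 copies (log2 ratio 0.10) and a 24-nt tRNA-Ala-GCY_ read with 366 and 398 (0.23). The 25-nt tRNA-Cys-TGY read above fell from 758 to 247 copies (log2 ratio -1.51, interval -1.72 to -1.30). The 24-nt tRNA-Ala-GCG read fell from 786 to 225 (-1.70), and it matches the genome at 25 places. The proline read had 960 and 494 copies (-0.85), short of the fold limit. Of 5 leucine reads of 16 nt from the 5′ end with 100 reads, 4 fell, among them that of tRNA-Leu-CTY, from 532 to 171 copies (-1.53), and that of tRNA-Leu-CTA_, from 188 to 53 (-1.72). The most abundant, that of tRNA-Leu-CTG, had 1187 and 756 copies (-0.54) and did not meet the rule, nor did the 2 such reads of 15 nt or the 2 of 17 nt. Low ratios at 16 nt were not confined to leucine. Over all amino acids, 10 reads of 16 nt from the 5′ end had 100 reads, 5 fell and all 10 had a ratio below 0. All 16-nt reads of the table had a log2 ratio of -0.35, and 11.3% of all sequences with 100 reads, of any length, fell. The pair below is shown because both stop early in the D arm; capitals run from base 8 to the last base, since these reads end before base 18.
tRNA-Leu-CTY, 16 nt: ggtagcgTGGCCGAGC
tRNA-Leu-CTA_, 16 nt: ggtagtgTGGCCGAGC

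At stops 2 or 3 bases farther on the amino acids went different ways. Over all names but tRNA-Met-i, reads from the 5′ end that stopped at base 19 numbered 4662 and 6155 (log2 ratio 0.51). Arginine gave 3547 and 5321 of them (0.69) and the other amino acids 1115 and 834 (-0.31). Each of the 5 arginine reads of 19 nt with 100 reads had a ratio above 0, among them the tRNA-Arg-AGA read with 1275 and 1730 copies (0.55) and the tRNA-Arg-CGA read, which rose from 76 to 200 (1.51). The 19-nt tRNA-Met-i read fell from 314 to 138 (-1.08), and that of tRNA-Ala-GCY had 374 and 197 copies (-0.82). At base 18 tryptophan had 1185 and 1919 reads (0.80), most of them the read shown with 1115 and 1854 copies (0.84), and the other amino acids 1522 and 1127 (-0.32). Reads that stopped at base 16 numbered 2906 and 1529 (-0.82), with leucine at 2268 and 1116 (-0.91) and the other amino acids at 638 and 413 (-0.52). Over the whole table, reads of 16, 18 and 19 nt had log2 ratios of -0.35, -0.20 and -0.40. Reads from the 5′ end that stopped at base 25 numbered 7222 and 5344 (-0.33), against -0.22 for all reads of 25 nt in the table. Cysteine fell at both stops, from 102 to 42 at base 16 (-1.17) and from 820 to 269 at base 25 (-1.50). Without cysteine the base 25 reads numbered 6402 and 5075 (-0.23). Of the sums given here only those of cysteine met the size rule, and the splits by amino acid were chosen after the values were seen.

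Sequences that did not start at a nuclear tRNA's 5′ end also rose, among them the 3 below. Of those from the 5′ end, a 24-nt tRNA-Trp-TGG read rose from 69 to 145 (log2 ratio 1.18) and a 29-nt tRNA-Arg-AGA read from 101 to 196 (1.07). The 3 are shown because they carry no D arm pattern and no CCA end, and because that of tRNA-Gln-CAA_ is mitochondrial.
tRNA-Leu-CTY, 24 nt: ggctccagtctcttcgggggcgtg
tRNA-Leu-CTY, 24 nt: ggctccagtctcttcggaggcgtg
tRNA-Gln-CAA_, 22 nt: aaggtgtttaggtagcacggag
The leucine reads rose from 138 to 392 (log2 ratio 1.62, interval 1.33 to 1.91) and from 108 to 270 (1.43, 1.10 to 1.77). The glutamine read rose from 73 to 199 (1.56, 1.16 to 1.96).

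The initiator tRNA, tRNA-Met-i, held 47866 and 47558 reads, 36.4% and 36.7% of the members (log2 ratio 0.10, negative when scaled to miRNA reads). Its main read matched the genome at 9 places. RefSeq lists 16 tRNA genes with the Met anticodon CAT, of which 9 are 72 nt long, 7 of them on chromosome 13, and 7 are 73 nt long; the symbols do not tell initiator from elongator genes. Reads that overlapped by at least 14 nt joined into a run of 73 nt that placed 99.9% of the name's reads in each library, so each read could be given a start base. Start positions were examined after the counts of single sequences had been seen.

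The near equality of the tRNA-Met-i totals combined a higher count at base 1 with a lower count inside the D arm. Reads from base 1 numbered 37270 and 42033, 77.9% and 88.4% of the name (log2 ratio 0.28, interval 0.26 to 0.30). Reads that started at bases 10 to 19 numbered 7098 and 2657, 14.8% and 5.59%, and fell (-1.31, -1.37 to -1.24). Those starting at bases 2 to 9 numbered 3174 and 2488 (-0.24), and those at base 20 or later 258 and 316. Most of these internal reads began at bases 12 to 14, with 6235 and 2342 reads. The reads below are shown because they begin inside the D arm and stop at the same base as the 32-nt 5′ read or 1 base later.
tRNA-Met-i, bases 12 to 32: gcagcggaagcgtgctgggcc
tRNA-Met-i, bases 13 to 32: cagcggaagcgtgctgggcc
tRNA-Met-i, bases 12 to 33: gcagcggaagcgtgctgggccc
tRNA-Met-i, bases 13 to 33: cagcggaagcgtgctgggccc
The 21-nt read fell from 1629 to 680 (-1.15), the 20-nt read from 1238 to 465 (-1.30), and the reads ending at base 33 from 461 to 148 (-1.53) and from 411 to 111 (-1.78). Grouped by their stop, reads starting at bases 12 to 14 fell at each base from 28 to 33: those stopping at base 32 from 3101 to 1227 (-1.23), and at base 30 from 530 to 129 (-1.93). At base 27 they numbered 502 and 234 (-0.99), just short of the limit. A start between bases 10 and 19 of tRNA-Leu-CTG, the next most abundant name, gave 389 and 275 reads (-0.39).

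**Figure D2:**
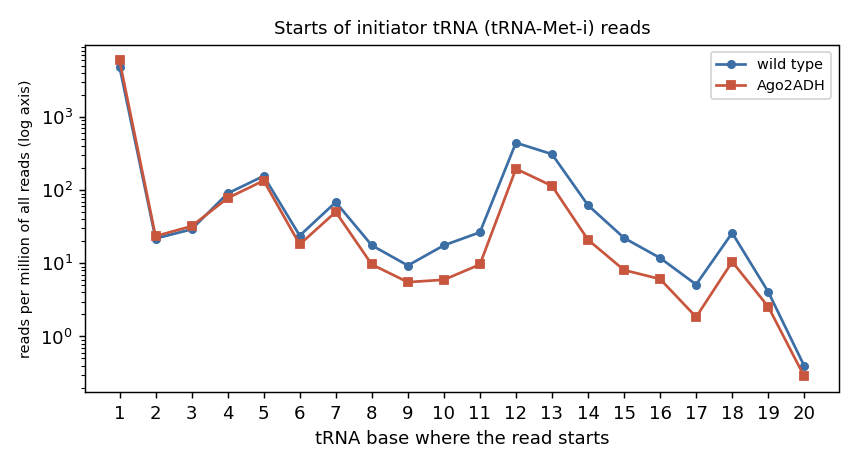
RPM, on a log axis, by the tRNA-Met-i base at which a read starts, for wild type (blue circles) and Ago2ADH (red squares). At bases 12 and 13 the wild type points, from 3393 and 2368 reads, lie above the Ago2ADH points, from 1386 and 808 reads, while at base 1 the order is reversed.

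The stops of the tRNA-Met-i reads from base 1 lay most often at bases 27 and 32. The 27-nt read had 10986 and 12784 copies (log2 ratio 0.33), 29.5% and 30.4% of these reads. The 32-nt read had 8892 and 12568 copies (0.61, interval 0.57 to 0.65), 23.9% and 29.9%. Reads that stopped at base 30 had 1938 and 1421 copies (-0.34), those that stopped at base 22 had 2087 and 1566 (-0.31), and those that stopped at base 16 had 1474 and 1005 (-0.44). None of these met the size rule. For all reads of the table, the log2 ratio was 0.02 at 27 nt, 0.46 at 32 nt and 0.09 at 30 nt. It was 0.20 at 22 nt and -0.35 at 16 nt.

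**Figure D3:**
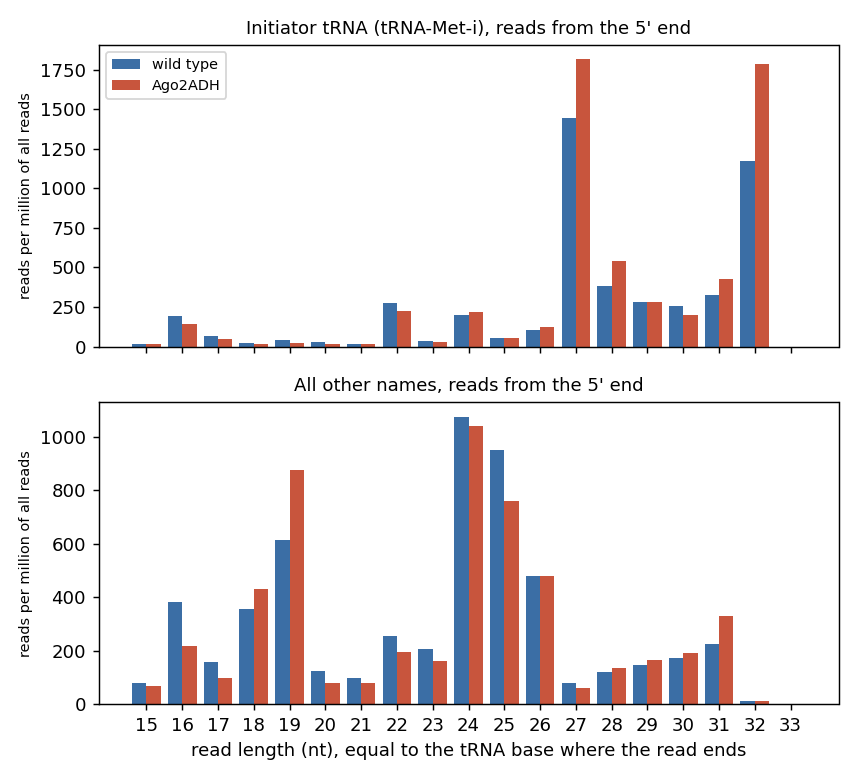
RPM by the base at which reads from the 5′ end stop, for tRNA-Met-i (top) and all other names (bottom), with wild type in blue and Ago2ADH in red. The Ago2ADH bars are taller at base 32 of tRNA-Met-i and at base 19 of the other names, and lower at base 16 of both.

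In tRNA-Leu-CTG, 66.3% of the reads in each library began at base 1, with 10463 and 10277 reads. A second start at base 4 had 2302 and 2968 reads (log2 ratio 0.48), most of them 1 sequence of 21 nt with 1838 and 2495 copies. It is shown because it lacks the bases at the 5′ end and yet is among the 10 most abundant member sequences.
tRNA-Leu-CTG, bases 4 to 24: aggatggccgagcggtctaag
tRNA-Leu-CTG, bases 45 to 64: tctcccctggaggcgtgggt
Reads from base 45 fell from 231 to 18 (-3.57, interval -4.35 to -2.88), led by the 20-nt read shown with 150 and 13 copies. Reads from base 52 had 1076 and 727 copies (-0.46). Base 45 was singled out after its values were seen.

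The members as a set were longer in Ago2ADH. Reads of 27 to 34 nt were 30.7% of wild type member reads (interval 30.4 to 30.9) and 38.0% in Ago2ADH (37.7 to 38.2), with 40359 and 49206 reads (log2 ratio 0.40). Without tRNA-Met-i the shares were 11.6% and 15.1%. Reads of 32 nt numbered 9171 and 13019 (0.61) and reads of 16 nt 7545 and 4969 (-0.49). All reads of the table went the same way, at 0.46 for 32 nt and -0.35 for 16 nt. Over the whole table, reads of 27 to 34 nt had a log2 ratio of 0.13, and in the tRNAs of the 6 other amino acids -0.10, with shares of 60.1% and 64.9%. The gel fraction is labelled 19 to 30 nt, but 20.5% and 17.4% of member reads were 15 to 18 nt long and 10.5% and 14.7% were 31 to 34 nt. A difference in the gel cut between the libraries was not tested.

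By position, 60.4% and 61.7% of member reads began at the 5′ end of a tRNA that carries the D arm pattern. Reads from the 5′ end of tRNAs without this pattern are not counted there. The main mitochondrial reads of tRNA-Gln-CAA_ and tRNA-Ser-TCA(m), which begin at base 1, are among those left out. The D arm pattern at bases 8 to 18 stood in 63.1% and 64.6% of member reads of 18 nt or more. In the whole table it stood in 9.45% and 8.15% of such reads. For such tRNA reads of Gly, Glu, Asp, Val, Lys and His the shares were higher than in the members, at 83.7% and 84.6%. The pattern was thus not particular to the members. The T arm letters GTTCNANNC, searched on the read's own strand, were in 3.87% and 4.61% of member reads (log2 ratio 0.34) and in 0.800% and 1.05% of all reads. A match is a description of letters and not of a site of cleavage.

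Member sequences do not include the CCA that tRNAs receive after transcription unless the genome encodes it. Reads without a genome match that equal a member sequence plus CCA were therefore collected from outside the repeat class, and 159 such sequences were found with 8843 and 7883 reads (log2 ratio -0.06). They had 3 preferred lengths. The 18-nt reads numbered 3703 and 3723 (0.12), the 22-nt reads 1895 and 430 (-2.03, interval -2.19 to -1.88), and the 30-nt reads 2636 and 3283 (0.43). The lengths thus went apart, and the 22-nt reads fell. The 180 member sequences that themselves end in the letters CCA had 4842 and 4918 reads (0.13). At 22 nt these had 158 and 75 reads (-0.97), a smaller difference that did not meet the rule. The sequences with added CCA are shown in groups that share a 3′ end, with that CCA in capitals.
tRNA-Asn-AAC, 30 nt: ttggtggttcgagcccacccagggacgCCA
tRNA-Asn-AAC, 22 nt: tcgagcccacccagggacgCCA
tRNA-Leu-CTG, 22 nt: tcgaatcccacttctgacaCCA
tRNA-Leu-CTG, 18 nt: atcccacttctgacaCCA
tRNA-Ala-GCY_, 22 nt: tcaatccccggcacctccaCCA
tRNA-Ala-GCY_, 18 nt: tccccggcacctccaCCA
tRNA-Ser-AGY, 22 nt: tcgaatcccatcctcgtcgCCA
tRNA-Thr-ACY_, 22 nt: tcgaatcccagcggggcctCCA
Of the 22-nt reads 89.0% began with TCGA, within the T loop, and 99.4% of the 30-nt reads held GTTC at bases 7 to 10.

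The contrast between lengths held within a tRNA. The 22-nt asparagine read fell from 411 to 18 (log2 ratio -4.40, interval -5.17 to -3.73), while the 30-nt read with the same 3′ end had 1011 and 1379 copies (0.56). The 22-nt tRNA-Leu-CTG read fell from 143 to 43 (-1.62) and its 18-nt form had 534 and 501 copies (0.02). The 22-nt alanine read fell from 87 to 23 (-1.81) and its 18-nt form had 1008 and 936 (0.00). The serine read fell from 650 to 176 (-1.78) and the threonine read from 181 to 32 (-2.39). With another tRNA-Leu-CTG read, 190 and 48 copies, all 6 sequences of 22 nt that had 100 reads fell. Of 7 such sequences of 18 nt 0 met the rule, and of 12 of 30 nt only that of tRNA-Arg-AGA did, which rose from 23 to 78 (1.87). For comparison, 7.54% of all 22-nt sequences with 100 reads fell, 18.9% of those of 18 nt met the rule, and 16.5% of those of 30 nt rose.

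**Figure D4:**
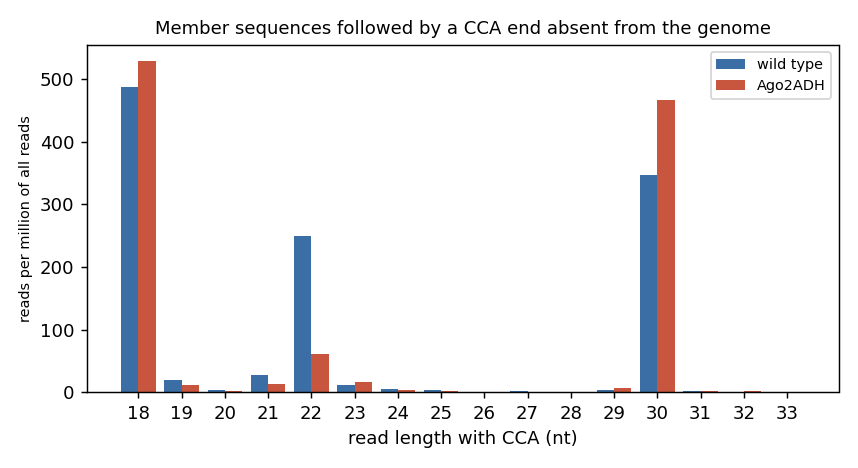
RPM of member sequences followed by CCA, by length, for wild type (blue) and Ago2ADH (red). The 22-nt bars stand at 249 (wild type) and 61.0 (Ago2ADH), while the 18-nt and 30-nt bars are higher in Ago2ADH.

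The 22-nt CCA reads were also fewer in Ago2ADH for the 6 other amino acids. Their sequences plus CCA had 5899 and 1970 reads at 22 nt (log2 ratio -1.47) and 740 and 1227 at 30 nt (0.84). Without the asparagine and tRNA-Ser-AGY sequences the 22-nt reads here numbered 820 and 226 (-1.75). All reads of 22 nt in the table, mainly miRNAs, had a log2 ratio of 0.20. All reads without a genome match that end in CCA, a set that includes those above, numbered 18211 and 8921 at 22 nt (-0.92). At 30 nt that set had 15254 and 22720 reads (0.68). Genes listed under tRNA processing, a list that also holds genes of tRNA transcription, modification and export, had few reads. Of 18 listed, 3 had 100 reads and 0 met the size rule. The 3 included Dicer1, the RNase of miRNA processing, with 98 and 94 reads, and Xpot, the tRNA export receptor, with 72 and 75. Of 16 listed aminoacyl-tRNA synthetases 15 were found and 3 had enough reads, with 0 past the rule; of all RefSeq names 0.965% met it. Iars, the isoleucine enzyme, had 521 and 368 (-0.39). Such reads are mRNA fragments of 15 to 34 nt and not a measure of mRNA level.

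Many reads from the 5′ end differed from the tRNA at base 9. N1-methylation of guanosine at this base is known from many tRNAs and makes reverse transcriptase misread it. The modification itself was not measured. Reads without a genome match were compared with the 5′ members, and those with exactly 1 substitution were counted, a step chosen after the data were seen. In tRNA-Met-i, the share of reads with a substitution at base 9 was 44.9% in wild type (interval 44.5 to 45.3) and 44.0% in Ago2ADH (43.7 to 44.4). The median over its other bases was 0.373% and 0.339%. The change G9T had 20764 and 23014 reads, G9C 4740 and 5221, and G9A 3227 and 3688, where position 9 is counted from the read's 5′ end. The most abundant altered read is shown with its genome-matching form, the base in capitals.
tRNA-Met-i, genome form: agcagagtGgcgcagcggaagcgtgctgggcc
tRNA-Met-i, altered form: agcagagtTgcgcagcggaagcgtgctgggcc
The altered form had 5933 and 7941 copies (log2 ratio 0.53), so counts of genome-matching reads leave out a large share of this tRNA in both libraries.

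The tRNA names fell into separate ranges at base 9. The share was 49.5% and 44.4% in tRNA-Arg-CGG, 41.3% and 39.5% in tRNA-Arg-CGY_, 30.4% and 33.1% in tRNA-Arg-AGA, 26.3% and 22.9% in tRNA-Pro-CCY, 24.8% and 23.0% in tRNA-Trp-TGG, and 16.7% and 18.1% in tRNA-Gln-CAG. It was at most 0.802% in each library in the leucine and serine names with 500 reads from the 5′ end, although these also have G at base 9. tRNA-Leu-CTG had 0.530% and 0.480% and tRNA-Ser-AGY 0.384% and 0.411%. The library intervals overlapped in tRNA-Arg-CGG, tRNA-Arg-CGY_, tRNA-Arg-AGA, tRNA-Trp-TGG and tRNA-Gln-CAG. They did not in tRNA-Pro-CCY and tRNA-Met-i, where the share was lower in Ago2ADH. Over all members the share was 31.6% and 33.2%, higher in Ago2ADH, and those intervals did not overlap either.

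**Figure D5:**
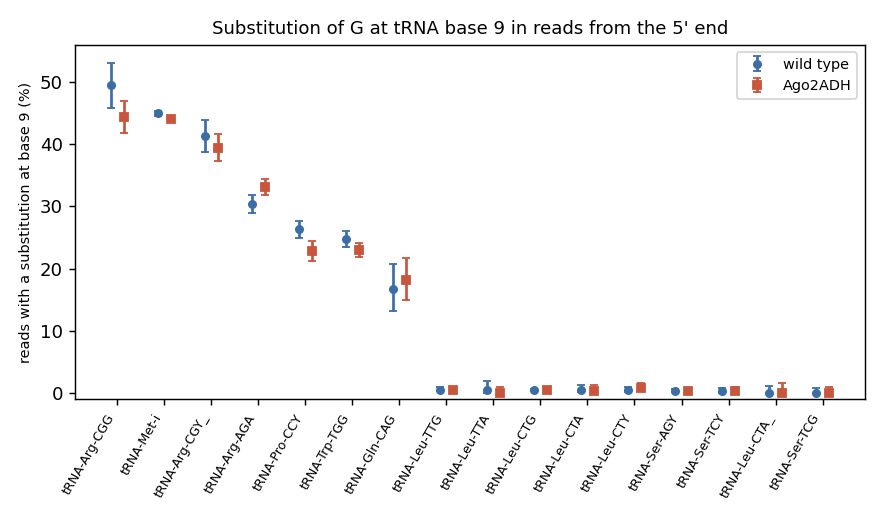
Percent of reads from the 5′ end with a substitution at base 9, for tRNA names with G there, in wild type (blue circles) and Ago2ADH (red squares), with 95% binomial (Clopper-Pearson) intervals as bars. The names split into those from 16.7% to 49.5% in wild type and the leucine and serine names below 1%.

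Leucine, serine and alanine names instead differed from the genome near base 26, where N2,N2-dimethylguanosine is known in many tRNAs. Among reads that reached it, base 26 was substituted in 76.1% and 84.2% of tRNA-Ser-AGY, in 79.5% and 89.3% of tRNA-Ser-TCY, and in 59.3% and 68.3% of tRNA-Ala-GCY. In tRNA-Leu-CTG the base concerned was 27, at 38.1% and 39.6%. The most abundant of these reads is shown with its genome form, and the change is G27T.
tRNA-Leu-CTG, genome form: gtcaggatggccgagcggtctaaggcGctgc
tRNA-Leu-CTG, altered form: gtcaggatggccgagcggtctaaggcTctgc
The altered form had 405 and 636 copies (log2 ratio 0.76). For tRNA-Ser-AGY and tRNA-Ser-TCY the intervals of the libraries did not overlap, and the share was higher in Ago2ADH. The genome-matching counts of reads that reach this base are a minority of such reads in those serine names.

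Of the members, 3 names matched mitochondrial tRNAs, which are encoded on chrM and serve translation of the respiratory chain subunits. tRNA-Gln-CAA_ reads matched mt-Tq (chrM:3772-3842, minus strand of GRCm38) with 2060 and 3328 reads (log2 ratio 0.80). tRNA-Leu-TTA(m) reads matched mt-Tl1 (chrM:2676-2750, plus strand) with 1011 and 1497 (0.68), and tRNA-Ser-TCA(m) reads matched mt-Ts1 (chrM:6870-6938, minus strand) with 1110 and 1655 (0.69). The main reads of mt-Tq and mt-Ts1 begin at the tRNA's first base, and that of mt-Tl1, with 48 and 27 copies, begins at base 10. They are shown because they lack the D arm pattern of the nuclear tRNAs.
tRNA-Gln-CAA_ in mt-Tq, 28 nt: taggataaggtgtttaggtagcacggag
tRNA-Leu-TTA(m) in mt-Tl1, 17 nt: gcagagccaggaaattg
tRNA-Ser-TCA(m) in mt-Ts1, 26 nt: gagaaagacatataggatatgagatt
Together the mitochondrial matches on the gene's strand had 4181 and 6480 reads (0.74, interval 0.68 to 0.80), and those on the opposite strand 1193 and 1946 (0.82). None of the 3 names met the size rule. Member reads with no mitochondrial match had 126108 and 121152 reads (0.05). Reads outside the members that matched mitochondrial tRNAs had 88141 and 102185 (0.32).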

How the data were processed

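Small RNA of fetal liver was sequenced in 1 wild type and 1 Ago2ADH library. The authors deposited 1 table of distinct reads with a count per library, the number of genome matches, a class and a name, per the file headers; the values are raw counts of 15 to 34 nt reads. No source used here names the aligner, the genome build or how adapters were trimmed. No value columns of other samples were present. The members and lists were chosen with earlier results of these data known. Counts were summed by name, amino acid, sequence and length and divided by all reads (7599870 and 7046197). Log2 ratios have 95% intervals from the exact conditional binomial (Clopper-Pearson) distribution (Python 3.11.15, SciPy 1.17.1, pandas 2.3.3). With 1 library per genotype no test was made. The size rule needs 100 reads, a ratio of 2 or 0.5 and an interval that excludes no change. It was tested on simulated counts with counting error only, which cannot show how it behaves under variation between libraries. Below 3 reads a library counts as under the floor of 0.395 or 0.426 RPM (reads scaled to 1000000 of all reads).

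Named were every amino acid, tRNA-Arg-CGG, the 8 names with most wild type reads and up to 10 names of largest rise or fall. Sequences were drawn from the top sequence per amino acid, the top 10 sequences, and up to 8 rises and 8 falls of sequences with 200 reads. Pathway genes were drawn from 3 per list. Not every sequence or gene so listed is given above. Others named were chosen after their values were seen. A read starts at the 5′ end if its first 15 nt are those of a member with the D arm pattern. Substitution counts leave out 1964 sequences within 1 change of several members. Alternatives were 4 other scalings (edgeR 4.0.16 TMM among them), read filters, minima and fold limits. RefSeq (GRCm38.p6) gave tRNA gene numbers and GENCODE M21 the mitochondrial tRNAs. The erythroid sum is over Hba-a2, Hbb-b2, Slc4a1, Alas2 and Tfrc; 1 listed gene is not reported here. Myeloid genes summed to 741 and 605 reads and endothelial and stellate genes to 197 and 205.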

Additional observations from a re-analysis of the deposited data

How the results depend on the processing

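No paired analysis was possible because each genotype has 1 library and no replicate could be left out. The pooled log2 ratio of 0.09 became -0.0226 scaled to miRNA reads and 0.23 scaled to all tRNA reads; these scalings move every ratio alike, by -0.11 and 0.14. It was 0.0629 for reads of 19 to 30 nt, 0.18 for reads with 1 genome match, 0.16 for distinct sequences, 0.0524 without the most abundant sequence of each name and 0.12 with reads of 1 substitution. The 3 names that rose were 2 scaled to miRNA reads, for reads with 1 genome match, with reads of 1 substitution and without the most abundant sequence of each name, 0 by distinct sequences, 1 at a minimum of 500 reads, 9 at a fold limit of 1.5 and 0 at 3. The 0 that fell became 1 scaled to miRNA reads, 3 for reads of 19 to 30 nt and 3 at a fold limit of 1.5. The 23 sequences that rose were 54 at a minimum of 50 reads, 2 at 500, 235 with none, 60 at a fold limit of 1.5 and 5 at 3. The 45 that fell were 78, 9, 230, 79 and 14 in the same settings, and 29 without tRNA-Met-i. The rise of 7.28 points in reads of 27 to 34 nt was 8.03 for reads with 1 genome match, 3.42 by distinct sequences, 8.09 without the most abundant sequence of each name, 6.87 with reads of 1 substitution and 3.55 without tRNA-Met-i. The log2 ratio of tRNA-Met-i reads from bases 10 to 19 was -1.42 scaled to miRNA reads and -1.17 scaled to all tRNA reads. By distinct sequences, which ignore copy number, it was 0.11 (-0.37 to 0.59), and that of the 22-nt CCA reads 0.13 (-0.88 to 1.14). The 5 settings other than distinct sequences kept the 22-nt ratio between -2.18 and -1.89. These alternatives for the tRNA-Met-i starts, the CCA reads, 1 substitution and tRNA-Met-i were chosen after seeing the data; causes were not tested. Of 15 amino acids, 4 changed sign scaled to miRNA reads and 0 with TMM or median-of-ratios. Names with few reads are limited by depth: tRNA-Ser-TCA_, with 142 and 240 reads, has an interval of 0.56 to 1.17.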
